A study of Mus musculus with 12 samples.

Results

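Heparan sulfate proteoglycans were followed in glomerular endothelial cells (GEC) through 10 genes, the syndecans Sdc1, Sdc2, Sdc3 and Sdc4, the glypicans Gpc1, Gpc4 and Gpc6, the sulfotransferases Ndst1 and Hs6st1, and the heparanase Hpse. A gene was taken where its symbol in a deposited count table equalled one of these names. All 10 were listed in both tables, among 19564 genes listed in either of them. The RNA came from glomeruli of the renal cortex of mice in which Cre recombinase under the Tek promoter switches on the red fluorescent protein tdTomato (tdT), and the cells were sorted by brightness into dim and bright GEC. The 6 mice were C57BL/6 animals of 4 months that all carried the TekCre tdTomato reporter, 3 of them wild type (WT) and 3 of the genotype Col4a5 -/-, a model of Alport syndrome (AS) that lacks the α5 chain of type IV collagen. Each mouse gave 1 dim and 1 bright library, so that 12 libraries formed the groups WT-dim, WT-bright, AS-dim and AS-bright with 3 libraries each. The Tek promoter is also active in precursors of blood cells, so the reporter does not mark endothelium alone.

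Blood in a capillary does not touch the endothelial membrane directly but a coat of sugar chains, the glycocalyx, and fluid filtered in the glomerulus has to cross this coat. Syndecans span the membrane and glypicans are held in it by a lipid anchor, and both carry long heparan sulfate chains that bind growth factors, chemokines and antithrombin. The chains are polymerized and then sulfated in the Golgi by enzymes such as Ndst1, which replaces N-acetyl with N-sulfate groups, and Hs6st1, which adds sulfate to the 6-O position. Heparanase cuts the chains and is made in quantity by leukocytes and platelets.

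Counts on genes ran from 11440169 to 15074909 per library. Levels are given as CPM, counts scaled to the library size after edgeR's TMM normalization of all 12 libraries together. The 15 endothelial marker genes summed to 12518 to 20866 CPM in the bright libraries, 887 to 1603 CPM in WT-dim and 258 to 348 CPM in AS-dim. The 19 leukocyte markers summed to 9511 to 16289 CPM in WT-dim and 17803 to 20580 CPM in AS-dim, and the 14 of them listed for bright cells to 58.4 to 157 CPM. The dim libraries thus carried all 15 endothelial markers at a low level beside far more leukocyte marker RNA, and they are called dim GEC here only as the labels do. The 13 proximal tubule markers summed to 1675 to 8126 CPM in WT-dim, 16.7 to 473 CPM in AS-dim, 493 to 3299 CPM in WT-bright and 30.7 to 592 CPM in AS-bright, with 1 of them at 0 in an AS library of each subpopulation. WT mouse 1 and AS mouse 2 were richest in these markers within their groups, in both dim and bright cells. Col4a5, the mutated gene, had 439 to 877 counts in WT-dim and 17 to 51 in AS-dim, while WT-bright (69 to 158 counts) and AS-bright (43 to 104 counts) overlapped, so that only the dim libraries could be checked against their labels with it.

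Promoters are shown for 4 members called between the genotypes in the dim cells, Sdc4 and Gpc4, which were lower in AS, and Sdc3 and Hpse, which were higher. Each run covers 250 bases before to 50 bases after the start of the gene in the RefSeq annotation of GRCm38.p6, read 5′ to 3′ on the gene's strand. Capitals mark the GC box GGGCGG, or CCGCCC where it lies on the other strand, a sequence bound by Sp-family factors. The Sdc4 window is chr2:164443139-164443438 on the minus strand, Gpc4 is chrX:52164874-52165173 on the minus strand, Sdc3 is chr4:130792287-130792586 on the plus strand and Hpse is chr5:100719667-100719966 on the minus strand.
Sdc4: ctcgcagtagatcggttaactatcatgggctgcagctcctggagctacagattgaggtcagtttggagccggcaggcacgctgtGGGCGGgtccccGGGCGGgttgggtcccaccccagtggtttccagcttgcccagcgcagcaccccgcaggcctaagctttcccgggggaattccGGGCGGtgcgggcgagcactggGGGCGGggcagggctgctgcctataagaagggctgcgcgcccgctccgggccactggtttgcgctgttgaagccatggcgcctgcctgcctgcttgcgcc
Gpc4: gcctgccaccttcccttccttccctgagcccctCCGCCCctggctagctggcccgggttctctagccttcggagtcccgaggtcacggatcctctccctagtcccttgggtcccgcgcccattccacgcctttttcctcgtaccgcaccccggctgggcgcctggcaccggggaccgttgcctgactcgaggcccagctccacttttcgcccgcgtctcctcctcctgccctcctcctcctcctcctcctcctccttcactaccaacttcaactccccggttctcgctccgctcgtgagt
Sdc3: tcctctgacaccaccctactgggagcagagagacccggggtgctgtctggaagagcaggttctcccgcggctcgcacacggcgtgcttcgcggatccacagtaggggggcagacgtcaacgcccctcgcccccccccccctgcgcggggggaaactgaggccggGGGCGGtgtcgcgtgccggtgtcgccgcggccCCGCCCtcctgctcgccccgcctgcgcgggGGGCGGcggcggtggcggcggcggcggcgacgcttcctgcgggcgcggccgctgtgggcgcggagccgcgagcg
Hpse: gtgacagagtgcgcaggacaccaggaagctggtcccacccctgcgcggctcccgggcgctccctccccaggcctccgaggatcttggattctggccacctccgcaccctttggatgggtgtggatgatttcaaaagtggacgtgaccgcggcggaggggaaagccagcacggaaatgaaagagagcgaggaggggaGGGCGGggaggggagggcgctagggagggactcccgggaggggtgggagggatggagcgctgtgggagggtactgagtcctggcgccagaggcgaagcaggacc

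Sdc4 held 4 GC boxes, Sdc3 held 3, and Gpc4 and Hpse held 1 each, counted on both strands. A GC box was present in 35.7% of all 32851 promoter windows in the same table. The TATA box TATAAA (13.6% of windows), the CCAAT box CCAAT (37.4%), the E-box CACGTG (7.15%) and the AP-1 site TGACTCA (5.20%) were found in none of these 4 windows on either strand. Guanine and cytosine made up 67.7% of the bases for Sdc4, 66.7% for Gpc4, 77.7% for Sdc3 and 67.0% for Hpse, against a median of 52.7% over all windows. Of the other members, Sdc1 and Hs6st1 were also in the table, with 3 and 7 GC boxes.

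The first question was how the genotype changed these genes in the dim cells. In AS-dim, Sdc2, Gpc4 and Sdc4 fell and Sdc3 and Hpse rose, by 2.38- to 14.6-fold. These 5 were among 9 members tested, since Gpc6 did not pass the filter on low counts. Across all 14637 genes tested in this comparison 8.63% passed an adjusted p of 0.05, 6.42% lower and 2.21% higher. An unadjusted p under 0.05 was reached by 7 of the 9 members and 26.3% of all genes. The WT and AS libraries did not overlap in CPM for 7 of the 10 members (31.9% of all genes did not), the 5 above together with Ndst1 and Hs6st1. In sorted bulk samples such as these, fewer cells of a type and less RNA per cell cannot be told apart.

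**Figure D1:**
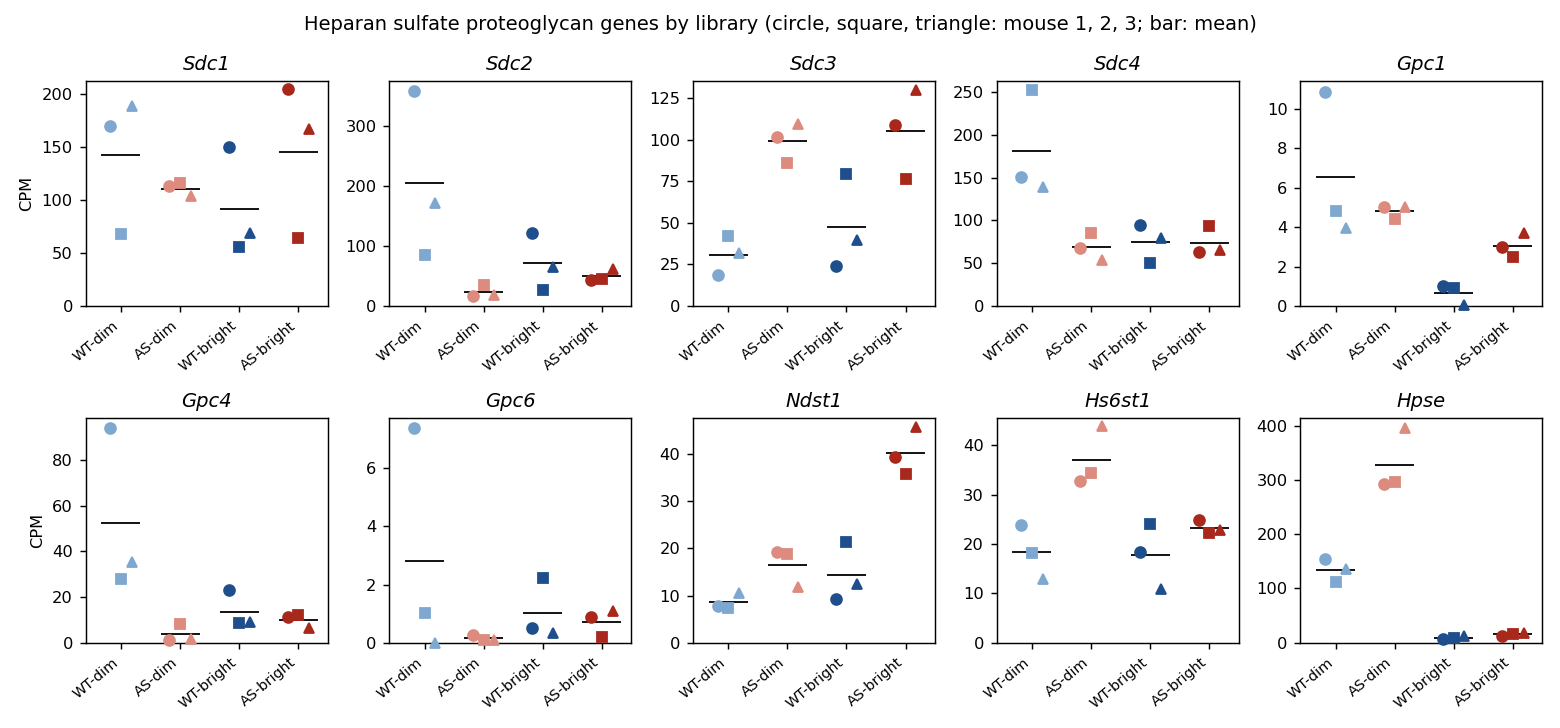
CPM (y axis, linear from 0) of the 10 genes in each of the 12 libraries, by group (x axis), with circles, squares and triangles for mouse 1, 2 and 3 of a genotype and a bar at the mean of 3. Sdc2, Sdc4 and Gpc4 are highest in WT-dim, Sdc3 is high in both AS groups, Ndst1 is highest in AS-bright, and Hpse is high in the dim groups alone.

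Sdc2, a syndecan of endothelium and fibroblasts with its gene at chr15:32920723-33034935 (GRCm38, plus strand), measured 358, 85.5 and 171 CPM in the 3 WT-dim libraries and 15.9, 34.3 and 18.2 CPM in AS-dim. Every AS-dim library lay below every WT-dim library, and WT mouse 1 stood well above the other WT mice. The log2 fold change of AS over WT was -3.21 (standard error 0.55, adjusted p = 0.0217, edgeR quasi-likelihood test), a 9.26-fold difference. Sdc4, the most broadly expressed syndecan and a partner of integrins at focal adhesions, measured 151, 253 and 139 CPM in WT-dim and 67.5, 85.9 and 53.5 CPM in AS-dim. It fell by 1.42 on the log2 scale (standard error 0.29, adjusted p = 0.0287), again with no overlap, and here WT mouse 2 was the highest.

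Sdc3, a syndecan best known from neurons and also found in macrophages and endothelium, went the opposite way. Its gene at chr4:130792537-130826319 is overlapped by 2 antisense genes. It measured 18.9, 42.0 and 31.9 CPM in WT-dim and 102, 85.8 and 110 CPM in AS-dim. The lowest AS library had more than the highest WT library, and the log2 fold change was 1.65 (standard error 0.30, adjusted p = 0.0230), a 3.13-fold rise. Sdc1, the syndecan of epithelial and plasma cells that is measured in blood as a sign of glycocalyx shedding, had 169, 67.7 and 188 CPM in WT-dim and 113, 116 and 103 CPM in AS-dim. Its AS libraries lay inside the WT range (log2 fold change -0.39, standard error 0.35, adjusted p = 0.527). The ratio of Sdc3 to Sdc2, both per kilobase (kb) of exon, was 0.0312 to 0.289 in WT-dim and 1.47 to 3.77 in AS-dim, so that the syndecan with the lower level per kb in every WT-dim library had the higher level in every AS-dim library.

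Among the glypicans, Gpc4 changed most of the 9 members tested in the dim cells. It measured 93.9, 27.9 and 35.3 CPM in WT-dim and 1.41, 8.29 and 1.60 CPM in AS-dim, where 2 of the 3 libraries held only 20 counts. The log2 fold change was -3.87 (standard error 0.74, adjusted p = 0.0248), a 14.6-fold difference with no overlap. Gpc1, a glypican through which flow is sensed on endothelium, had 10.9, 4.82 and 3.96 CPM in WT-dim and 5.02, 4.39 and 5.03 CPM in AS-dim, which overlapped (log2 fold change -0.47, standard error 0.50, adjusted p = 0.602). Gpc6, a glypican of growing bone and connective tissue, was scarce, with 84, 12 and 0 counts in WT-dim and 4, 1 and 1 counts in AS-dim. The 0 counts of WT mouse 3 allow up to 3 counts, so the level of Gpc6 in WT-dim rested on mouse 1 and the groups overlapped. When every gene with a count was tested, its log2 fold change was -4.09 with an adjusted p of 0.104.

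Of the modifying enzymes, Hpse rose from 155, 112 and 136 CPM in WT-dim to 292, 296 and 395 CPM in AS-dim. This 2.38-fold rise, 1.25 on the log2 scale (standard error 0.21, adjusted p = 0.0206), left no libraries overlapping. Hs6st1 had 23.9, 18.1 and 13.0 CPM in WT-dim and 32.7, 34.4 and 43.9 CPM in AS-dim, and Ndst1 had 7.89, 7.35 and 10.5 CPM against 19.3, 18.7 and 11.7 CPM. All AS libraries of both sulfotransferases lay above all WT libraries, yet neither passed the quasi-likelihood test after adjustment, with log2 fold changes of 0.98 (standard error 0.31, adjusted p = 0.0872) for Hs6st1 and 0.92 (standard error 0.36, adjusted p = 0.152) for Ndst1. Hs6st1 passed with DESeq2 (adjusted p = 0.0366) and with all 12 libraries in 1 fit (adjusted p = 0.0480). Relative to the summed core proteins, both per kb, Hpse measured 0.178 to 0.225 in WT-dim and 0.912 to 1.54 in AS-dim.

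These calls rested on few libraries, and markers of other cells also differed between the genotypes. No member passed without AS mouse 1 or without AS mouse 3, where 0 and 1 genes passed in all. Sdc3 (adjusted p = 0.0521) and Sdc4 (adjusted p = 0.0525) were lost without AS mouse 2, Sdc4 was lost without WT mouse 2 (adjusted p = 0.0521). Hpse was lost in edgeR's likelihood ratio test (adjusted p = 0.0612) and Gpc4 in edgeR's version 3 fit (adjusted p = 0.0514), while Gpc6 was gained without WT mouse 3 (log2 fold change -4.70, adjusted p = 0.0217) or with all 12 libraries in 1 fit (adjusted p = 0.0446). Without WT mouse 1, which was richest in proximal tubule markers, the same 5 members passed, and Sdc2 measured -2.52 and Gpc4 -3.13 on the log2 scale. Between WT-dim and AS-dim, 6 of the 13 proximal tubule markers tested fell and 0 rose (median log2 fold change -4.25), and 10 of 15 endothelial markers fell and 0 rose (median -2.22), while 3 of 20 table entries for the 19 leukocyte markers rose and 0 fell (median 0.32, from -0.42 to 1.87). Of the markers of the loop, distal tubule and collecting duct 4 of 5 tested fell (median -2.96), with sums of 664 to 1626 CPM in WT-dim and 40.5 to 252 CPM in AS-dim, and WT-dim mouse 2, which had the most Sdc4, had the highest sum. Of the 6 podocyte markers 2 fell (median -1.37), with sums of 465 to 1053 CPM in WT-dim and 407 to 457 CPM in AS-dim. Of the 6 mesangial and mural markers tested 0 passed (median -0.99), with sums of 122 to 211 CPM in WT-dim and 60.0 to 109 CPM in AS-dim.

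**Figure D2:**
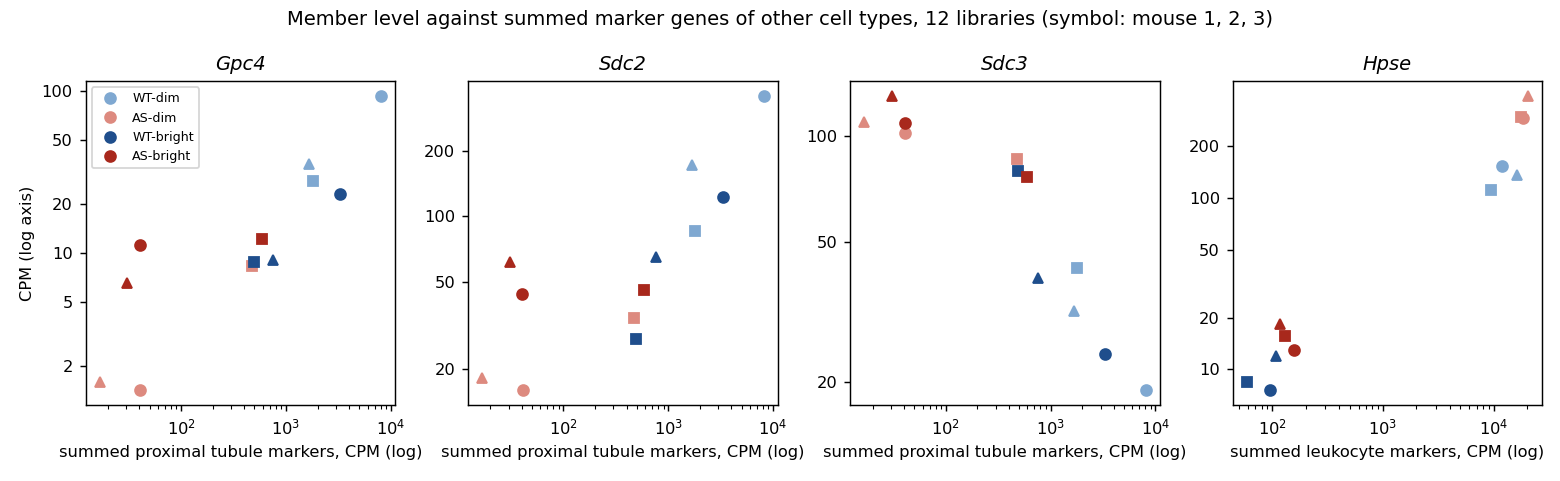
CPM of Gpc4, Sdc2 and Sdc3 (y axes, log) against the summed CPM of 13 proximal tubule markers (x axes, log), and of Hpse against the summed leukocyte markers, with colours for the 4 groups and circles, squares and triangles for mouse 1, 2 and 3. WT-dim mouse 1, with 8126 CPM of tubule markers, has the most Gpc4 and Sdc2 and the least Sdc3, and the dim libraries lie far to the right of the bright ones on the leukocyte axis.

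The library with the most proximal tubule marker RNA had the most Gpc4 in 4 of 4 groups, the most Sdc2 and Sdc4 in 3 of 4, and the least Sdc3 in 4 of 4. It came from WT mouse 1 in both WT groups and AS mouse 2 in both AS groups, so the 4 groups are not independent. For the other members, the groups with the most and with the least were 2 and 1 (Sdc1), 2 and 2 (Gpc1), 1 and 1 (Gpc6, Hs6st1 and Hpse) and 0 and 2 (Ndst1). When the mean log2 CPM of the proximal tubule markers was added to the fit as a covariate, the log2 fold changes in the dim cells were -1.33 for Sdc2, -0.80 for Gpc4, -1.04 for Sdc4, 0.996 for Sdc3 and 1.12 for Hpse. In that quasi-likelihood fit 0 genes passed an adjusted p of 0.05, and 911 genes, 1 member among them, had an unadjusted p under 0.05. With the leukocyte markers as the covariate, the values were -2.39, -2.65, -1.23, 1.36 and 1.47 in the same order. In that fit 20 genes passed, 0 members among them. An unadjusted p under 0.05 was reached by 6 members and by 2432 of all 14637 genes. Within WT-dim, mouse 3 had the most leukocyte marker RNA and mouse 1 the most Hpse, and within AS-dim mouse 3 had the most of both. Neither the tubule nor the leukocyte marker sums overlapped between WT-dim and AS-dim. These fits therefore cannot tell genotype from marker level, and the part of the markers in the differences was not tested.

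In the bright cells the same comparison called 0 of the 10 members, all of which were tested. Over all genes 0.452% passed (65 of 14396), 0.188% higher and 0.264% lower. Beside the 0 called by the quasi-likelihood test, 3 members had an unadjusted p under 0.05 (21.8% of all genes did), DESeq2 called Ndst1 and edgeR's likelihood ratio test called Ndst1 and Gpc1. The WT and AS libraries did not overlap for 3 of the 10 members, Ndst1, Gpc1 and Hpse, all higher in AS (24.8% of all genes did not overlap). Podocyte markers summed to 94.4 to 200 CPM in WT-bright and 251 to 418 CPM in AS-bright, and leukocyte markers to 58.4 to 108 and 117 to 157 CPM. The loop, distal tubule and collecting duct markers had a median log2 fold change of -2.15. Of these 3 lists 0 markers passed, and their part in the differences was not tested.

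Ndst1 measured 9.17, 21.3 and 12.4 CPM in WT-bright and 39.3, 35.8 and 45.8 CPM in AS-bright, the highest levels of this gene in any group. Its log2 fold change was 1.44 (standard error 0.31, adjusted p = 0.0593), and it passed without WT mouse 2 (adjusted p = 0.0390). With the leukocyte markers as a covariate it passed as well (2.03, adjusted p = 0.0102). Ndst1 shares its locus with the ribosomal protein gene Rps14 on the opposite strand, and the strand used for counting was not stated, so that its counts are uncertain. Gpc1 had 1.01, 0.93 and 0.07 CPM in WT-bright, from 16, 13 and 1 counts, and 2.99, 2.48 and 3.71 CPM in AS-bright, from 38 to 51 counts. It differed by 2.11 on the log2 scale (standard error 0.62, adjusted p = 0.104) from few reads, and Gpc1 is overlapped by 4 annotated genes.

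Sdc3 had 24.0, 79.2 and 39.5 CPM in WT-bright and 109, 76.4 and 130 CPM in AS-bright. WT mouse 2 lay among the AS values, and the difference, 1.09 on the log2 scale (standard error 0.37, adjusted p = 0.139), passed only where that library was left out (1.64, adjusted p = 0.0455) or the leukocyte markers were a covariate (2.10, adjusted p = 0.00567), of the 16 alternatives tried. Hpse was low in both groups, with 7.53, 8.41 and 11.9 CPM in WT-bright and 12.9, 15.6 and 18.5 CPM in AS-bright (log2 fold change 0.68, standard error 0.32, adjusted p = 0.248).

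The 3 members that fell in AS-dim were not called in the bright cells. Sdc2 had 122, 27.4 and 65.2 CPM in WT-bright and 44.0, 45.8 and 61.9 CPM in AS-bright, with the AS libraries inside the WT range. Its log2 fold change was -0.60, with 2 standard errors on either side reaching from -1.49 to 0.29. Gpc4 had 23.2, 8.77 and 9.08 CPM against 11.2, 12.2 and 6.55 CPM (log2 fold change -0.54, from -1.46 to 0.39), and Sdc4 had 94.6, 50.8 and 79.8 CPM against 63.5, 93.5 and 65.1 CPM (log2 fold change -0.10, from -0.67 to 0.47). The 13 proximal tubule markers had a median log2 fold change of -2.63 in this comparison, with 0 called. With their mean level as a covariate, the log2 fold changes were 0.0573 for Sdc2, 0.43 for Gpc4 and 0.52 for Sdc4. The part of these markers in the values was not tested. For all 3 genes WT mouse 1 was the highest WT library, and without it the log2 fold changes turned positive, to 0.08, 0.13 and 0.14. Sdc1 ranged from 55.9 to 150 CPM in WT-bright and from 64.4 to 204 CPM in AS-bright, Hs6st1 from 10.9 to 24.0 CPM and from 22.3 to 24.8 CPM, and Gpc6 from 5 to 31 counts and from 3 to 15 counts. All 3 overlapped, at log2 fold changes of 0.57, 0.33 and -0.54, with adjusted p-values of 0.497 to 0.734.

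**Figure D3:**
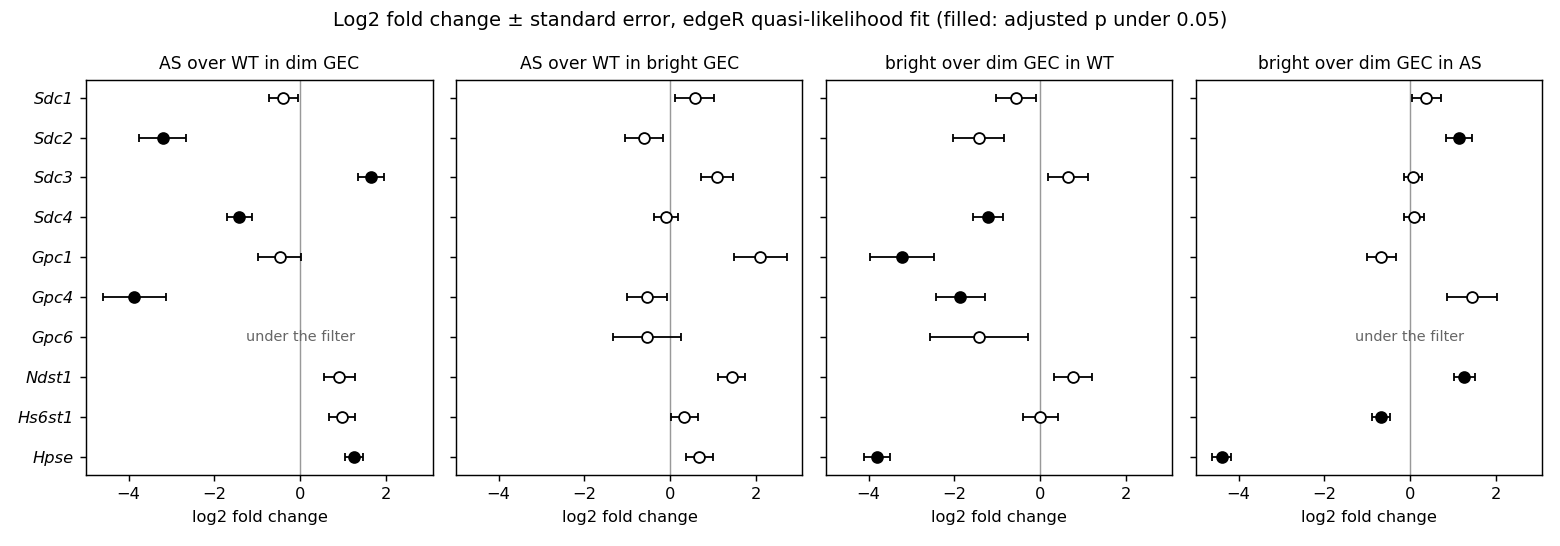
Log2 fold change (x axes) of each member (y axis) in the 4 comparisons, as a point with its standard error, filled where the adjusted p was under 0.05. In the dim cells 5 members pass in AS over WT and in the bright cells 0, and Hpse has the lowest value of both comparisons of bright with dim GEC.

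Whether the genotype effect differed between the subpopulations was tested as an interaction over all 12 libraries. It called 0 of 10 members by the quasi-likelihood test, against 3.77% of all 15084 genes (2.96% of all genes with the higher value in bright cells). An unadjusted p under 0.05 was reached by 4 members (18.5% of all genes), and the bright effect exceeded the dim effect by 3.37 (standard error 0.92, adjusted p = 0.0605) for Gpc4, 2.67 (standard error 0.76, adjusted p = 0.0715) for Sdc2, 2.62 (standard error 0.81, adjusted p = 0.0955) for Gpc1 and 1.37 (standard error 0.43, adjusted p = 0.0966) for Sdc4, on the log2 scale. With the mouse as a replicate block, which the shared animal gives, Sdc2 (2.73, adjusted p = 0.00558) and Gpc4 (3.47, adjusted p = 0.00961) passed. DESeq2 called the same 2, and the likelihood ratio test called them and Gpc1 (adjusted p = 0.0255). Sdc2 and Gpc4 also passed without WT-dim mouse 2 or WT-bright mouse 1, and Gpc4 alone of them without WT-dim mouse 3 or AS-dim mouse 2. Scaling by library sizes alone moved the median difference of all genes from 0.13 to -0.03. Sdc3 (-0.53), Hpse (-0.53), Hs6st1 (-0.62), Ndst1 (0.55), Sdc1 (1.02) and Gpc6 (3.60) had adjusted p-values of 0.314 to 0.663.

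**Figure D4:**
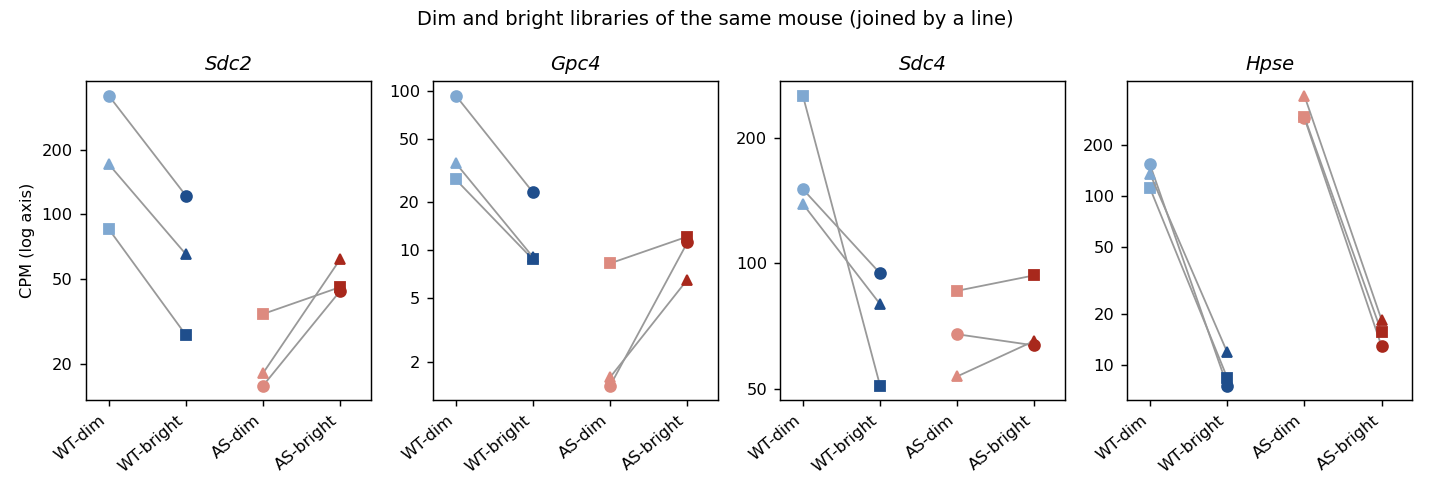
CPM (y axes, log) of Sdc2, Gpc4, Sdc4 and Hpse in the dim and the bright library of each mouse, joined by a line, for 3 WT and 3 AS mice. Sdc2 and Gpc4 fall from dim to bright in the 3 WT mice and rise in the 3 AS mice, and Hpse falls in all 6.

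The second question was how bright and dim GEC differed in each genotype. The counts that follow come from a fit without the mouse. With the mouse as a block 5 members passed in each genotype, with Sdc2 added in WT and Gpc4 in AS. That fit called 4444 of 14247 genes in WT and 7755 of 14052 in AS. In WT, Hpse, Gpc1, Gpc4 and Sdc4 were lower in the bright cells, 4 of 10 members tested, and 0 were higher. Over all 14247 genes 25.3% passed, 11.5% lower and 13.8% higher, and 5 members against 37.4% of all genes had an unadjusted p under 0.05. The same 4 were also the members without overlap between WT-dim and WT-bright, against 41.8% of all genes. In AS, Hpse and Hs6st1 were lower and Ndst1 and Sdc2 higher in the bright cells, 4 of 9 members tested. Of all 14052 genes 55.1% passed, 28.6% higher and 26.5% lower. An unadjusted p under 0.05 was reached by 5 members and 60.1% of all genes. The groups did not overlap for 5 of the 10 members, these 4 and Gpc1 (62.2% of all genes did not).

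Hpse differed most between the subpopulations, with 112 to 155 CPM in WT-dim against 7.53 to 11.9 CPM in WT-bright, and 292 to 395 CPM in AS-dim against 12.9 to 18.5 CPM in AS-bright. Bright cells lay below dim cells by a log2 value of -3.80 in WT (standard error 0.31, adjusted p = 3.98e-05) and by -4.39 in the AS mice (standard error 0.23, adjusted p = 1.51e-07), and both passed in all 13 alternatives. All 14 leukocyte markers tested were lower in the bright cells of both genotypes, with median log2 fold changes of -7.86 in WT and -7.38 in AS. The 5 platelet markers listed for dim cells summed to 14.6 to 27.4 CPM, and the 4 listed for bright cells, of which 3 are the same genes, to 2.92 to 7.50 CPM. The part of these cells in the level of Hpse was not tested.

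Sdc2 and Gpc4 changed in opposite directions in the genotypes. Within a WT mouse, the bright library lay below the dim library by 1.40 to 1.64 log2 units for Sdc2 and by 1.67 to 2.02 for Gpc4, and within an AS mouse it lay above by 0.42 to 1.77 and by 0.56 to 2.99. In the same comparisons, the median of the podocyte markers on the log2 scale was -1.999 in WT (5 of 6 lower) and 0.67 in AS (3 of 6 higher and 1 lower), and that of the proximal tubule markers was -1.27 in WT and 0.41 in AS, with 0 called in either, and the part of both in the values of Sdc2 and Gpc4 was not tested. The fit of bright over dim in WT gave -1.44 for Sdc2 (standard error 0.61, adjusted p = 0.117) and -1.86 for Gpc4 (standard error 0.57, adjusted p = 0.0413). With the mouse as a block, Sdc2 passed as well (-1.48, adjusted p = 0.00187), as it did without WT-bright mouse 1 (adjusted p = 0.0474). In AS the fit gave 1.14 for Sdc2 (standard error 0.30, adjusted p = 0.00919) and 1.44 for Gpc4 (standard error 0.58, adjusted p = 0.0594), and Gpc4 passed with the block (1.60, adjusted p = 0.0132) and in the likelihood ratio test (adjusted p = 0.0382). Gpc4 in WT was lost without WT-dim mouse 1 (adjusted p = 0.140), WT-bright mouse 2 (0.145) or WT-bright mouse 3 (0.144), and in the version 3 fit (0.0568). In AS it was gained without AS-dim mouse 2 (2.70, adjusted p = 0.00108), the AS-dim library with the most tubule marker RNA.

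Sdc4 was lower in the bright cells of WT mice (log2 fold change -1.21, standard error 0.34, adjusted p = 0.0299) while AS mice had 68.9 ± 16.2 CPM in dim and 74.0 ± 16.9 CPM in bright cells (SD, n = 3, log2 fold change 0.10, standard error 0.24, adjusted p = 0.757). In WT the call was lost without WT-dim mouse 2 (adjusted p = 0.107), WT-bright mouse 2 (0.103) or WT-bright mouse 3 (0.0882), and in the likelihood ratio test (0.0811). Gpc1 was lower in the bright cells of WT mice (-3.22, standard error 0.75, adjusted p = 0.0120), where it had 1 to 16 counts, and the call was lost without WT-bright mouse 3 (adjusted p = 0.0556), the library with 1 count. In AS its bright libraries also lay below its dim libraries (-0.67, standard error 0.33, adjusted p = 0.115). Sdc1 and Sdc3 overlapped between dim and bright in both genotypes, with adjusted p-values of 0.346 to 0.797, and Sdc1 passed in AS only without AS-bright mouse 2 (adjusted p = 0.00891) of the 13 alternatives.

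The sulfotransferases parted in the AS mice. Ndst1 was higher in AS-bright than in AS-dim (1.27, standard error 0.25, adjusted p = 0.00153), by 0.93 to 1.96 log2 units within a mouse, and passed in all 13 alternatives. Hs6st1 was lower (-0.68, standard error 0.21, adjusted p = 0.0189), by 0.39 to 0.95 within a mouse, and was lost without AS-bright mouse 3 (adjusted p = 0.0578) or AS-dim mouse 3 (adjusted p = 0.0771) and in the likelihood ratio test (adjusted p = 0.0655). In WT neither passed, with 0.77 for Ndst1 (adjusted p = 0.246) and 0.00 for Hs6st1 (adjusted p = 0.996). Gpc6 was below the filter in AS, where it passed when every gene with a count was tested (2.13, adjusted p = 0.0439), and overlapped in WT (-1.42, adjusted p = 0.397), where leaving out WT-dim mouse 1 turned it to 0.98.

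Between genes, levels were compared as CPM per kb of merged exon length in Gencode M21. In WT-dim the highest were Sdc4 (71.0 ± 24.6 CPM per kb, SD, n = 3), Sdc2 (58.1 ± 39.5), Hpse (38.2 ± 6.10) and Sdc1 (37.2 ± 17.0), and the ranges of neighbours in this order overlapped. In AS-dim Hpse stood first with 93.2 ± 16.6 CPM per kb (SD, n = 3), above the range of Sdc1 (29.0 ± 1.75) and Sdc4 (27.1 ± 6.38), while Sdc2 (6.47 ± 2.84) and Gpc4 (1.42 ± 1.48) had moved down to the sixth and the eighth place. In WT-bright Sdc4 (29.5 ± 8.74), Sdc1 (24.0 ± 13.4) and Sdc2 (20.3 ± 13.5) led with overlapping ranges, and in AS-bright Sdc1 (38.1 ± 19.0) and Sdc4 (29.1 ± 6.64). Gpc1 and Gpc6 took the lowest 2 places in both bright groups, at 0.11 to 0.59 CPM per kb on average. With the gene lengths in the deposited tables, which differ from the merged exon lengths (7323 against 3809 bases for Sdc1), Sdc2 led in WT-dim and Sdc4 in both bright groups, and Hpse still led in AS-dim.

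**Figure D5:**
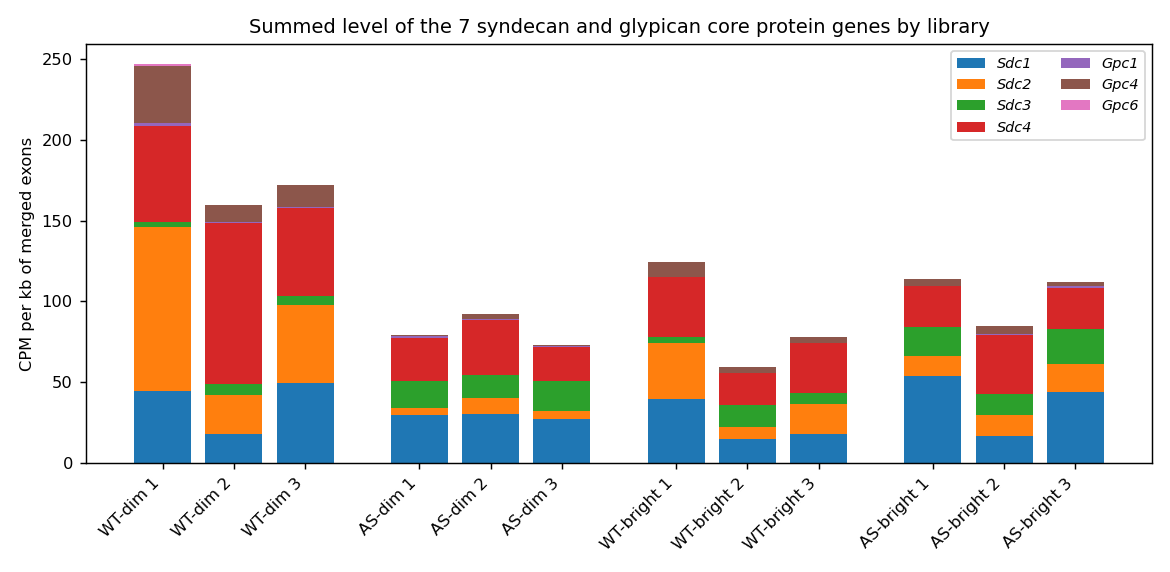
Stacked CPM per kb (y axis, from 0) of the 7 syndecan and glypican core protein genes in each library (x axis), 3 libraries per group. The WT-dim bars reach 160 to 247 CPM per kb and all others 59.5 to 124, and Sdc3 takes a larger part of the AS-dim than of the WT-dim bars.

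The 7 core protein genes summed to 193 ± 47.2 CPM per kb in WT-dim, 81.5 ± 9.78 in AS-dim, 87.2 ± 33.3 in WT-bright and 104 ± 16.5 in AS-bright (SD, n = 3 each). Every WT-dim library (160 to 247) lay above every library of the other groups (59.5 to 124). Syndecans made up 84.3% to 98.0% of the sum in every library. Within it, Sdc3 took 2.92% ± 1.56 in WT-dim and 20.7% ± 4.80 in AS-dim, Sdc2 took 28.2% ± 13.0 and 7.77% ± 2.50, and Gpc4 took 9.56% ± 4.19 and 1.63% ± 1.53 (SD, n = 3). In the bright cells the shares of Sdc2 (21.6% ± 7.66 in WT and 14.0% ± 2.66 in AS) and Sdc3 (11.3% ± 9.83 and 16.8% ± 2.26) lay closer together than in the dim cells, with overlapping libraries.

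Genes of the same pathway gave the setting of these changes. In AS over WT in dim GEC, 0 of 41 other heparan sulfate genes tested rose and 2 fell, the basement membrane proteoglycans Hspg2 (perlecan, -2.44, standard error 0.37, adjusted p = 0.0197) and Col18a1 (collagen XVIII, -2.14, standard error 0.39, adjusted p = 0.0230). Their median log2 fold change was -0.06, against -0.02 over all genes, of which 8.63% passed. Agrn (agrin) had -1.03 (adjusted p = 0.145). By the quasi-likelihood test 0 of 12 linker and polymerase genes, 0 of 7 other sulfation and epimerization genes and 0 of 8 other degradation genes passed, with median log2 fold changes of -0.28, -0.06 and 0.42. Among 12 other glycocalyx genes, the sialomucins Podxl (-1.93, adjusted p = 0.0169) and Emcn (-2.88, adjusted p = 0.00982) and the hyaluronidase Hyal2 (-2.63, adjusted p = 0.0302) fell, and the hyaluronan receptor Cd44 rose (0.84, adjusted p = 0.0475). Emcn is also in the endothelial marker list, of which 10 of 15 genes fell. Of the 5 sheddase genes tested 0 passed (median 0.27).

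In the bright cells 0 of 40 other heparan sulfate genes passed in AS over WT (median 0.19, against -0.03 over all genes, of which 0.452% passed), with Hspg2 at 0.85 (adjusted p = 0.0811), Agrn at 0.71 (adjusted p = 0.113) and Col18a1 at -0.24 (adjusted p = 0.632). The sialomucin Cd34 rose (1.18, standard error 0.20, adjusted p = 0.0413) among 13 other glycocalyx genes tested. The interaction passed for 3 of the 40 (3.77% of all genes), Hspg2 (3.32, adjusted p = 0.00222), Agrn (1.77, adjusted p = 0.0494) and Col18a1 (1.94, adjusted p = 0.0423), in which the bright effect exceeded the dim effect. It also passed for 4 of 13 other glycocalyx genes, Hyal2 (3.37), Podxl (2.15), Cd34 (3.38) and Emcn (2.52), and, in the same direction, for 12 of the 15 endothelial markers (median 2.52) and 4 of the 6 podocyte markers (median 2.47).

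Bright over dim, 8 of 40 other heparan sulfate genes rose and 3 fell in WT, and 18 rose and 9 fell in AS, where 25.3% and 55.1% of all genes passed. All 5 other core proteins tested were higher in the bright cells in both genotypes, as were 14 of the 15 endothelial markers in WT and 15 of 15 in AS, and 4 of the 7 mesangial and mural markers tested in WT (median 2.42) and 7 of 7 in AS (median 3.13). The part of these markers in the difference was not tested. The core proteins were led by Hspg2 (3.43 in WT and 6.69 in AS) and followed by Col18a1 (2.08 and 3.96), Tgfbr3 (1.90 and 2.34), Gpc3 (1.64 and 3.30) and Agrn (1.19 and 2.90). The copolymerase gene Ext2 was higher (1.85 and 2.07), and Extl2 as well (1.32 and 2.35), while the xylosyltransferase gene Xylt1 (-2.52 and -2.69) and the xylose phosphatase gene Pxylp1 (-4.06 and -2.85) were lower. Of the 3-O-sulfotransferase genes, Hs3st1 was lower (-2.75 and -1.99) and Hs3st3b1 higher (1.85 and 3.03). Hs3st3a1 and Hs3st6, the others tested, passed in neither genotype. Of other glycocalyx genes, Emcn, Cd34, Podxl, Hyal2, Esm1 and Bgn were higher in the bright cells of both genotypes, and Cd44 and Vcan, at -7.72 and -5.52 in WT, were lower. Of the sheddase genes, Mmp9 was lower (-7.83 in WT and -8.37 in AS) and Mmp14 higher (3.41 and 4.15) in both, and Mmp2 higher (3.54) and Adam17 lower (-0.66) in AS.

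The patterns of Sdc3 and Ndst1 over the 12 libraries were the closest pair of members, with a root mean square difference of 0.59 between their centred log2 CPM, and Sdc2 and Gpc4 came next with 0.63. Among 10412 genes whose group means spanned at least 1 log2 unit, the nearest to Sdc2 were Cd63 (0.41) and Bloc1s1 (0.41), to Gpc4 Rbpms2 (0.48) and Fahd1 (0.54), and to Sdc4 Npnt (0.27) and Gm11625 (0.31). Fam60a (0.33) and Plod3 (0.34) were nearest to Sdc3, and Mcub (0.37) and Gpcpd1 (0.38) to Hpse. U2af2 (0.31) was among the 2 nearest to Ndst1 and Kmt5c (0.20) among the 2 nearest to Hs6st1. Gpc1 was nearest to Sars2 (0.53) and Prkcq (0.62) and Gpc6 to Haspin (0.72) and Fbxl18 (0.74). Sdc1 spanned less than 1 log2 unit and was not matched.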

How the data were processed

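RNA of dim and bright GEC from 3 WT and 3 AS mice was sequenced from poly-A libraries by the authors, who aligned the reads with STAR (2.6.0c in the submitters' processing notes) to GRCm38.p5 with Gencode M16 and deposited the raw counts per gene, 1 table per subpopulation. The strand that was counted is not given in the sources used here, so genes that overlap others are uncertain. RPKM, log2 fold changes, likelihood ratio statistics, p-values and FDR of the authors, and the ERCC spike-ins, are also in the tables and were not used. The length column deposited by the authors, in bases and in another unit than the counts, served only as a second gene length.

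Counts passing filterByExpr (minimum count 10) were scaled by TMM and compared by quasi-likelihood testing in edgeR (4.0.16, under R 4.3.3). P-values were adjusted by Benjamini-Hochberg across all genes tested in a comparison, and 0.05 was the threshold. AS over WT used the 6 libraries of a table, bright over dim the 6 of a genotype on the 15768 genes in both tables, and the interaction all 12. Standard errors were derived from the F statistic. With 3 libraries against 3, an exact permutation test of a single value cannot go below 0.1. Depths of 11440169 to 15074909 counts leave genes at a few counts imprecise, and counting error alone is covered by the limit of 3 counts given for a count of 0. Each test was tried on simulated counts.

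The dim and bright libraries of a mouse share an animal identifier in the labels, so they are paired by mouse. Across genes, deviations from the group mean correlated within a mouse by 0.197 on average in WT and 0.213 in AS, against -0.0985 and -0.104 between mice. The WT and AS mice were separate animals.

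The members and gene lists were chosen with earlier results of these data known. All 10 members are named, and from the other lists the genes that passed, at most 8 per list and comparison with the largest change, and Hspg2, Agrn and Col18a1. The nearest genes are the 2 with the smallest root mean square difference of log2 CPM (prior count 2), and for Ndst1 and Hs6st1 1 of the 2 is not reported here. Promoter windows are from a table of RefSeq promoters in which 6 of the 10 members were matched, and exon lengths from Gencode M21, both on GRCm38. As alternatives, each library was left out, DESeq2 1.42.0 or the likelihood ratio test of edgeR was used, scaling was by RLE or by library sizes alone, the filter was dropped, a replicate block or marker covariates were added, all libraries entered a single fit, and, added after the data had been seen, edgeR's version 3 fit.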

Additional observations from a re-analysis of the deposited data

Results flagged for a closer look

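Sdc2 and Gpc4 changed from dim to bright in opposite directions in the genotypes. For both genes the bright library lay below the dim library in 3 of 3 WT mice and above it in 3 of 3 AS mice. The genotype effect in bright cells exceeded that in dim cells by 2.67 log2 units for Sdc2 and 3.37 for Gpc4. The test of this difference itself, the interaction in edgeR's quasi-likelihood fit, gave adjusted p-values of 0.0715 and 0.0605, and 0.00558 and 0.00961 with the mouse as a block. Podocyte markers also had a median log2 value of bright over dim below 0 in WT, at -1.999 with 5 of 6 lower. In AS their median was 0.67, with 3 of 6 higher and 1 lower, and 4 of 6 were called in the interaction (median 2.47). Proximal tubule markers had medians of -1.27 in WT and 0.41 in AS, with 0 of 13 called in the interaction (median 1.74). Of the endothelial markers 12 of 15 were called in the interaction in the same direction (median 2.52). The part of these markers in the difference was not tested.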

How the results depend on the processing

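Of 741 member values under alternatives, 718 kept their direction and 650 also their side of the threshold, 28 gained and 40 lost the call. In AS over WT in dim GEC, 1263 genes passed in all, 2213 with DESeq2, 2106 with all libraries in 1 fit, 582 with the version 3 fit, 20 with the leukocyte and 0 with the proximal tubule covariate, and 0 members passed with either covariate. In bright GEC 65 genes passed, 1117 with DESeq2, 897 by the likelihood ratio test, 859 with the leukocyte covariate, 139 with all libraries, 39 without a filter, and 0 with the version 3 fit or the tubule covariate. There 1 member passed with DESeq2 and 2 each by the likelihood ratio test and with the leukocyte covariate. In the interaction 569 genes passed, 1186 (2 members) with DESeq2 and 1092 (3 members) by the likelihood ratio test. With each library left out, 0 to 1825 genes and 0 to 6 members passed in dim GEC, 0 to 281 and 0 to 2 in bright GEC, 2534 to 3435 and 1 to 5 for bright over dim in WT, 6651 to 7490 and 3 to 6 in AS, and 252 to 857 and 0 to 2 in the interaction. The fewest members passed without AS-dim mouse 1 or 3 in dim GEC and without WT-bright mouse 3 (1) or 2 (2) in WT, of 4. The cause of these differences was not tested.

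With the replicate block, 877 genes and 2 members passed in the interaction, 4444 and 5 for bright over dim in WT, and 7755 and 5 in AS, where the block is the mouse. Beyond Sdc2 and Gpc4 it changed no member's call there. WT and AS mice share only a number, with mean correlations of -0.0504 in dim and -0.0367 in bright GEC between same-numbered mice, and that replicate block left 494 genes and 2 members in dim and 16 genes in bright GEC.

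Directions turned in 23 values, in uncalled members. Gpc1 in dim GEC was 0.22 with the tubule and 0.66 with the leukocyte covariate, and -0.74 to 0.11 with a library left out. In bright GEC, Sdc2 was 0.0573, Gpc4 0.43 and Sdc4 0.52 with the tubule covariate, and with a library left out they ran from -0.99 to 0.0781, -0.80 to 0.13 and -0.33 to 0.14. Gpc6 there was 1.09 with the leukocyte covariate and -0.995 to 0.65 with a library left out. For bright over dim in WT, Hs6st1 was -0.0343 with RLE normalization, -0.0332 with DESeq2 and -0.0180 with the block. With a library left out, Hs6st1 ran from -0.24 to 0.27 and Gpc6 from -2.60 to 0.98 in WT, Sdc3 from -0.0961 to 0.21 and Sdc4 from -0.15 to 0.26 in AS, and Sdc3 in the interaction from -0.85 to 0.0489. Depth limits the values that rest on 20 counts or fewer in a library, as for Gpc6 in every group, Gpc1 in WT-bright and Gpc4 in AS-dim.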
